A study of Mus musculus with 9 samples.

Results

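ZEB1 signal in PB3 cells was measured in 23623 consensus peaks, and 1273 of them were in the peak list of cells held for 24 h in eribulin and in no other list. Such a region overlapped by at least 1 bp a peak of the 24 h list and no peak of the lists of untreated cells, 48 h or 72 h. The 1273 regions were 8.558% of the 14875 consensus peaks in the 24 h list, and the other 13602 were shared with at least 1 other list. Each of the 1273 held exactly 1 peak of the 24 h list. By the same rule, 4484 regions were in the list of untreated cells only, 993 in that of 48 h only and 894 in that of 72 h only. The rule rests on measured values, so signal at 24 h against the other groups describes how the regions were chosen, and calls in that contrast support nothing here.

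PB3 is a mouse breast cancer line, negative for the receptors ER, PR and HER2 by its label. Untreated cells are labelled PB3-Parental and treated cells PB3_ERI, and treatment was 300 nM eribulin for 24, 48 or 72 h. Each of the 4 groups had 2 ZEB1 libraries, and 1 IgG library served as background for the peak lists. The labels do not say whether the 2 libraries of a group came from separate cultures, so p-values cover only the variation among these libraries, which may be technical. Counts in consensus peaks summed to between 326944 and 765015 per library, and both 72 h libraries and the first untreated library had the lowest totals. Counts of paired libraries differed by about as much as 2 draws from 1 pool (chi-square per degree of freedom from 0.931 to 1.06), against 1.12 to 2.28 between libraries of different groups.

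The zinc-finger protein ZEB1 binds E-boxes, above all the letters CAGGTG, which read CACCTG on the other strand. It represses epithelial genes such as Cdh1 with corepressors, and at other sites it is known to act beside AP-1 and the YAP partners of the TEAD family. CUT&RUN tethers a nuclease to the antibody's target and sequences the DNA released beside it. Eribulin blocks microtubule growth and is used against breast cancer.

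The promoter sequences of 5 regions show where the E-box letters lie in regions at gene starts. Of the 1273 regions, 140 (11.0%) overlapped a promoter window, which runs from 250 bases before a RefSeq transcription start to 50 after it. Mon1a, Capn7 and Pacsin3 were the 3 with the highest 24 h signal among the 125 of these with 1 gene at the window. Rgs16 and Plekhh1 are added because their regions were also called higher at a later time, a choice made after their values were seen. Each line gives the 250 bases before the start, 5′ to 3′, from RefSeq on GRCm38.p6, with CAGGTG or CACCTG in capitals.
Mon1a: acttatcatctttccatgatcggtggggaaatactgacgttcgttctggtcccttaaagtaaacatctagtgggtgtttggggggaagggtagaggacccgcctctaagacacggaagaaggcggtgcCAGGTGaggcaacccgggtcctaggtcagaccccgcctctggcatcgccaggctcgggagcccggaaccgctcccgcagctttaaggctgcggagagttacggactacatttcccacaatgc
Capn7: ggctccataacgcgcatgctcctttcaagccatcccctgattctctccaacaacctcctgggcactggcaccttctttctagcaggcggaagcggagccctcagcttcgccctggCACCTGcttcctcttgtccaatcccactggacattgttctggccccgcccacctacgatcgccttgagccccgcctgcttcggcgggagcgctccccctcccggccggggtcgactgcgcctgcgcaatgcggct
Pacsin3: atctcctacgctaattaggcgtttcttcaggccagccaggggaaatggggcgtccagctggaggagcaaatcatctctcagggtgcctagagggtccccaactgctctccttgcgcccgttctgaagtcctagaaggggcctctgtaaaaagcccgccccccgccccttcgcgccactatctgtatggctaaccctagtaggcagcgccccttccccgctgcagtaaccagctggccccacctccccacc
Rgs16: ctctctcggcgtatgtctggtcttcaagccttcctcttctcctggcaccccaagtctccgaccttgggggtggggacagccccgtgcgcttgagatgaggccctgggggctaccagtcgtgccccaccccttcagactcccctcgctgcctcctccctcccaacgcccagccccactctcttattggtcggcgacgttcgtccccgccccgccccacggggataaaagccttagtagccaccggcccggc
Plekhh1: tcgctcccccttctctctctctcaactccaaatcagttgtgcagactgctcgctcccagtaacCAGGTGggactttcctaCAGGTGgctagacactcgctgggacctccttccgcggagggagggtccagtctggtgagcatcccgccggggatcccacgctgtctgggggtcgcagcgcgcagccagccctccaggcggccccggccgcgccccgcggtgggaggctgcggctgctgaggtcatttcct
The windows lie on the + strand at chr9:107887879-107888128 for Mon1a, chr14:31336388-31336637 for Capn7, chr2:91257079-91257328 for Pacsin3, chr1:153740103-153740352 for Rgs16 and chr12:79028913-79029162 for Plekhh1. The match in Mon1a begins 122 bases before the start and that in Capn7 135 bases before it. Plekhh1 has 2 matches, which begin 187 and 170 bases before the start, and Pacsin3 and Rgs16 have none in these letters.

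E-box letters were searched in the whole 300-base windows, start sites included, on both strands, and the shares are descriptions. CAGGTG stood in 46 of the 161 windows that the regions overlapped (28.6%), in 17.8% of the 4896 windows overlapped by shared 24 h regions and in 20.2% of all 32851 windows. CAGGTA, a second E-box form, stood in 9.32% of the windows of the 24 h list only, 8.64% of the shared and 12.0% of all. The AP-1 letters TGANTCA stood in 8.07%, 6.15% and 7.81% of the same windows, and the TEAD letters GGAATG in 10.6%, 11.2% and 14.7%. Against both other sets the share was larger for CAGGTG and, by less, for TGANTCA, and none of the 4 motifs contains another. Median GC content of the windows was 60.0%, 63.0% and 52.7%.

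The regions are narrow, so the search was repeated in the bases that region and window share. There, CAGGTG occurred 27 times in 22 of the 140 regions, or 1.45 times per kb. The rate was 0.696 per kb for shared 24 h regions, 0.63 for the 48 h list only, 0.51 for the 72 h list only, 0.362 for the list of untreated cells only and 0.784 over all windows. Counted by region and not by base, 15.7% of the regions of the 24 h list only and 17.1% of the shared regions held a match. The shared bases in the latter are longer, so the counts per region and per kb order these 2 groups differently. Sequence outside promoter windows was not analysed here.

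The peaks were narrow and of low height, which describes the choice. Median width was 173 bp (quartiles 145 and 217), against 464 bp for shared regions, and 127 regions were under 100 bp wide. The other single-list sets were narrow too, with medians of 213 bp for untreated cells only, 171 bp for 48 h only and 185 bp for 72 h only. The fold over IgG, as the authors' peak caller gave it, had a median of 5.583 (quartiles 4.675 and 6.229), against 7.463 for shared regions and 5.281, 5.783 and 4.816 for the same 3 sets. The caller's −log10 q had a median of 4.003 (quartiles 3.077 and 5.425), against 7.659, and reached 5 in 407 of the 1273. The highest fold was 14.71, at a region nearest to Crlf2, a cytokine receptor chain, with Asrgl1 at 14.0 and Tpra1 at 13.6.

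**Figure D1:**
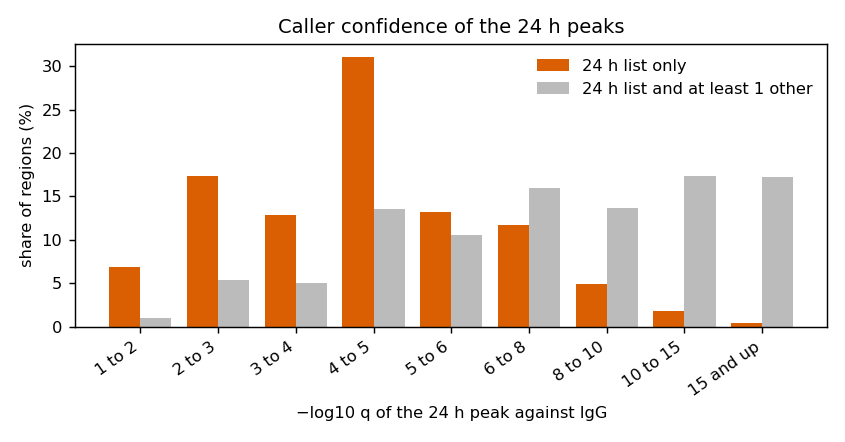
Share of regions (vertical axis, percent) by the −log10 q of the 24 h peak against IgG (horizontal axis, bins), for the 1273 regions in the 24 h list only and the 13602 shared with at least 1 other list. The regions in the 24 h list only sit mostly below 5, with a median of 4.003 against 7.659.

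Regions just inside and just outside the rule are described by 2 examples each. Those with the lowest −log10 q, 1.333, lay near Niban2, Id4, Eif3h, Itgb6 and Dok1. Near Niban2 the signal was 11.0 and 4.59 CPM in the untreated libraries, 15.3 and 20.5 at 24 h, 3.97 and 8.55 at 48 h, then 2.31 and 6.27 at 72 h. CPM are read counts scaled to a common total of reads in tested peaks. Near Itgb6, an integrin chain of epithelia, it was 5.5 and 6.12 CPM untreated, 5.12 and 8.19 at 24 h, 1.32 and 3.42 at 48 h, then 6.93 and 9.41 at 72 h. The 24 h libraries near Niban2 were above the other 6, and those near Itgb6 overlapped them. Just outside, a region near Rps6ka4 was kept out by a peak of untreated cells with a −log10 q of 1.319. It held 16.5 and 13.8 CPM untreated, 29.0 and 35.5 at 24 h, 27.8 and 10.3 at 48 h, then 20.8 and 25.1 at 72 h. A region near Ston1 was kept out by a 72 h peak at 1.329, with 32.4 and 40.9 CPM at 24 h and between 15.7 and 22.5 in the other 6 libraries. Both of these excluded regions had 24 h libraries above the other 6. The other regions named just outside, near Ncoa2, Cd7 and Eef1akmt2, did not. Near Cd7 the signal was 20.5 and 23.2 CPM at 24 h, and 20.8 in the first 72 h library.

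The signal of the 1273 regions was not absent in the other groups. The median region had 11.0 and 13.8 CPM in the untreated libraries, 22.2 and 20.5 at 24 h, 14.6 and 13.7 at 48 h, then 13.9 and 12.5 at 72 h. In reads, the medians were 4 and 9, 13 and 15, 11 and 8, and 6 and 4, so a few reads decide the value of a single region. Only 9 regions had 0 reads in both untreated libraries, 2 in both 48 h libraries and 7 in both 72 h libraries. The median ratio of mean 24 h signal to mean untreated signal was 1.768, that to 48 h 1.482 and that to 72 h 1.552. The same ratios over all consensus peaks were 0.9835, 0.9973 and 1.002.

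The 24 h group had the highest mean in 997 of the 1273 regions (78.3%), beside 22.3% of all consensus peaks. The highest mean was at 72 h in 152 regions (11.9%), at 48 h in 73 (5.73%) and in untreated cells in 51 (4.01%). Over all consensus peaks these shares were 27.9%, 16.8% and 33.0%. Both 24 h libraries stood above the other 6 in 473 of the 1273 regions (37.2%). Among the 922 regions that passed the filter on low counts this was so in 357, beside 7.17% of all 21192 tested peaks, and in 536 of the 922 when the second 24 h library was left out. With a library left out the condition is easier to meet. For 273 of the 922 the filter was passed only with a 24 h library, so these counts carry the choice of regions. In the test of 24 h against untreated cells, 173 of the 922 were called higher and 1 lower, beside 6.44% and 4.61% of all tested peaks. Without the first or second untreated library 103 or 46 were called at 24 h, and without the first or second 24 h library 85 or 101 were. DESeq2 called 0 of the 922, beside 90 of all tested peaks. It left 911 of the 922 without an adjusted p and had 147 higher and 0 lower at an unadjusted p below 0.05. Nothing is read from these counts, since the rule used the same contrast.

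**Figure D2:**
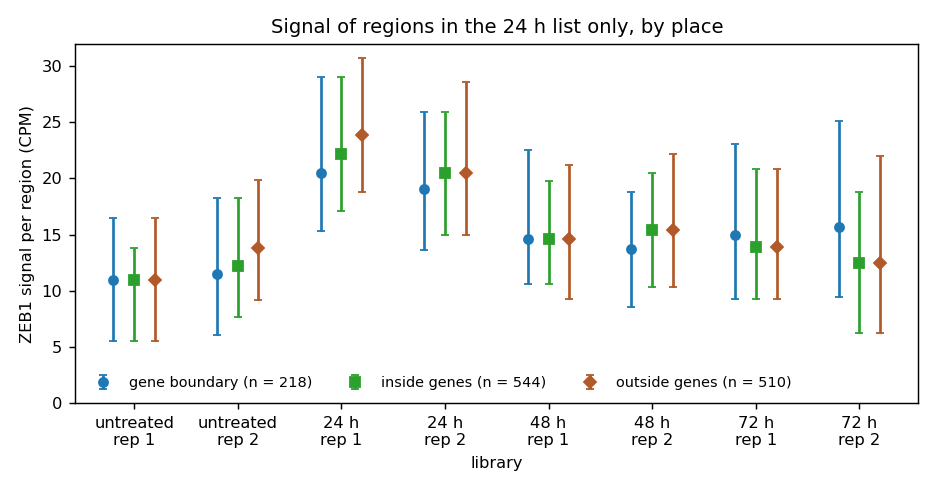
ZEB1 signal per region (CPM, vertical axis) in each of the 8 libraries (horizontal axis) for regions at gene boundaries, inside genes and outside genes. Symbols are medians over regions and bars run from the first to the third quartile, with 24 h medians from 19.1 to 23.9 CPM above every other median in the plot.

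Among regions with a gene within 50 kb, those with the highest 24 h signal differed in what the other groups held. A region 6578 bp from the predicted gene Gm15319 (chr8:20330840-20331332) had 49.5 and 48.9 CPM untreated, 133 and 96.9 at 24 h, 78.1 and 53.03 at 48 h, then 71.7 and 62.7 at 72 h. A region near Zc3h12c, which encodes a ribonuclease-family protein, had 19.3 and 22.9 CPM untreated, 63.1 and 49.1 at 24 h, 25.1 and 29.1 at 48 h, then 23.1 and 9.41 at 72 h. In both, the 24 h libraries were the highest. The region near Pctp, a phosphatidylcholine transfer protein, had 41.3 and 45.9 CPM untreated, 58.0 and 57.3 at 24 h, 63.5 and 65.0 at 48 h, then 71.7 and 40.8 at 72 h. There the 24 h libraries were below those of 48 h. Near Prlhr, a peptide hormone receptor, the values were 60.5 and 56.6 CPM untreated, 87.0 and 58.7 at 24 h, 46.3 and 44.5 at 48 h, then 57.8 and 43.9 at 72 h, and the 24 h libraries overlapped the untreated ones. The other 6 of the 10 highest lay near Pabpc2, Syt12, Pdlim5, Mon1a, Ly6e and Pacsin2.

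At promoters, the Mon1a region, whose window holds the E-box shown above, had 13.8 and 27.5 CPM untreated, 54.6 and 50.5 at 24 h, 31.8 and 42.8 at 48 h, then 34.7 and 40.8 at 72 h. MON1A takes part in vesicle traffic, and its 24 h libraries were above the other 6. The Capn7 region, with its single CACCTG, had 30.3 and 42.8 CPM untreated, 39.2 and 58.7 at 24 h, 52.9 and 25.7 at 48 h, then 64.7 and 43.9 at 72 h. CAPN7 is a calpain protease, and its groups overlapped. The Pacsin3 region, with no match in its printed letters, had 5.5 and 24.5 CPM untreated, 46.0 and 38.2 at 24 h, 31.8 and 32.5 at 48 h, then 37.0 and 31.4 at 72 h. Pacsin3 encodes an adaptor of endocytosis, and both its 24 h libraries were the highest. Over the 140 promoter regions, median CPM was 12.0 untreated, 22.0 at 24 h, 17.1 at 48 h and 17.5 at 72 h, and 28 of the 140 had both 24 h libraries above the other 6, against 473 of the 1273 and 6.98% of all consensus peaks.

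Among regions with both 24 h libraries above the other 6, a gene within 50 kb and a mean signal at or above the median of tested regions, the largest fitted change at 24 h lay near Mir100, a microRNA gene whose boundary was 49740 bp away. It had 2.75 and 6.12 CPM untreated, 37.5 and 35.5 at 24 h, 21.2 and 29.1 at 48 h, then 18.5 and 31.4 at 72 h, a fitted log2 fold change of 2.83 at 24 h. Next came Mettl27, a predicted methyltransferase gene, with 8.25 and 4.59 CPM untreated, 29.0 and 38.2 at 24 h, 15.9 and 23.9 at 48 h, then 18.5 and 22.0 at 72 h. A region inside Pdlim5, a PDZ and LIM protein of the actin cytoskeleton, had 16.5 and 7.64 CPM untreated, 52.9 and 54.6 at 24 h, 29.1 and 42.8 at 48 h, then 30.1 and 18.8 at 72 h. In all 3, the 48 h and 72 h libraries lay between the untreated and the 24 h libraries. The region near Tln2, a talin that links integrins to actin, had 16.5 and 7.64 CPM untreated, 54.6 and 46.4 at 24 h, 45.0 and 30.8 at 48 h, then 6.93 and 25.1 at 72 h. Here 72 h overlapped the untreated libraries and 48 h did not. The other 6 of the 10 lay near Nckap5l, Rgs16, Prss23, Pkia, Zmym2 and Pbp2, with fitted log2 changes at 24 h from 1.85 to 2.27.

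**Figure D3:**
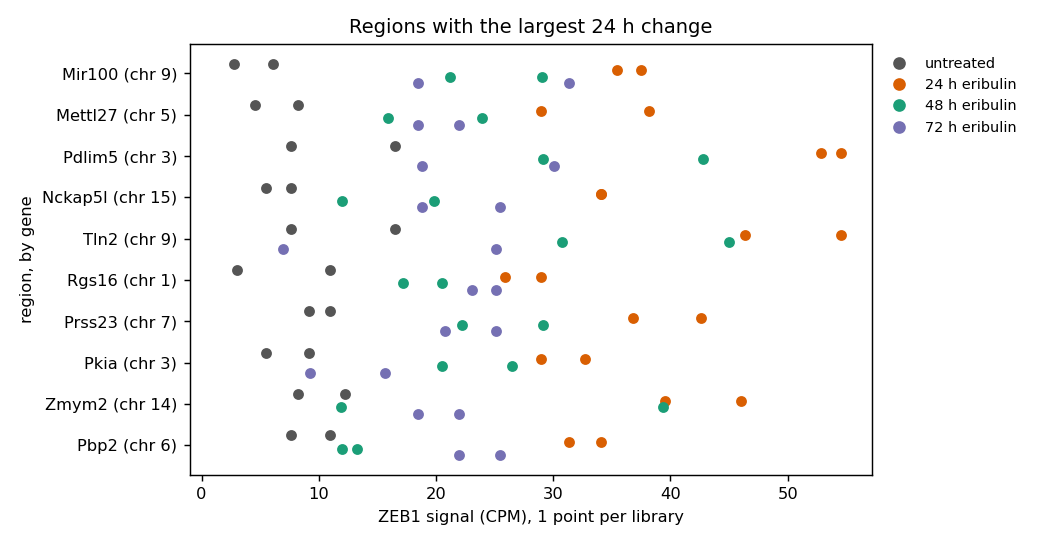
ZEB1 signal (CPM, horizontal axis, 1 point per library) in the 10 regions of the 24 h list only with the largest fitted 24 h change, among those with both 24 h libraries above the other 6. The regions were chosen on these values, and several, such as Mir100 and Pdlim5, hold 48 h and 72 h points between the untreated and 24 h points.

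Some regions were in the 24 h list only although another group had more signal. Near Tcf3, which encodes an E-box-binding helix-loop-helix factor, the values were 33.0 and 42.8 CPM untreated, 13.6 and 30.0 at 24 h, 18.5 and 20.5 at 48 h, then 25.4 and 18.8 at 72 h. Near Tmem158 they were 30.3 and 64.2 untreated, 29.0 and 25.9 at 24 h, 41.0 and 24.0 at 48 h, then 25.4 and 40.8 at 72 h. Both untreated libraries were above both 24 h libraries in these 2 regions. Near Septin7, a filament protein, they were 19.3 and 18.3 untreated, 18.8 and 24.6 at 24 h, 31.8 and 18.8 at 48 h, then 27.7 and 50.2 at 72 h, where 72 h was above 24 h. Mmp28, a matrix protease, and Preb were, by the same minimum of signal, the other 2 with the lowest ratio of 24 h signal to the highest other group.

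The position of the regions was not used by the rule. A region was at a boundary when its centre lay within 1000 bp of either end of a protein-coding gene, and 218 of the 1273 (17.1%) were. Another 544 (42.7%) lay inside such genes and 510 (40.1%) outside, and 1 lay on a contig without genes in the table used. Among shared 24 h regions 29.4% were at a boundary, and among all consensus peaks 28.3%. The share was 18.3% for the list of untreated cells only, 27.6% for 48 h only and 50.3% for 72 h only. Regions of the 24 h list only were thus at boundaries less often than those of the 2 later lists, close to those of untreated cells only, a difference that was not tested. By place, median 24 h signal was 19.5 CPM at boundaries, 21.7 inside genes and 22.6 outside. At 72 h the medians were 16.3, 13.6 and 13.8.

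**Figure D4:**
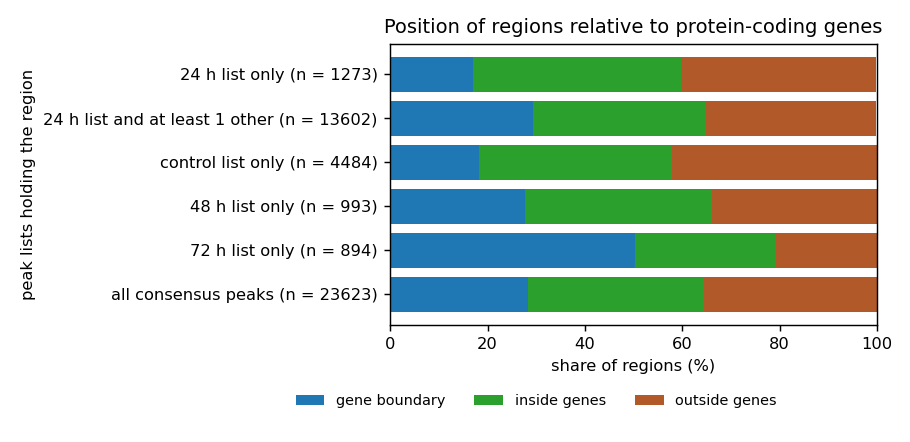
Share of regions (percent, horizontal axis) at the boundary of a protein-coding gene, inside genes and outside genes, for each set of peak lists (vertical axis, with the number of regions). Boundary regions were 17.1% of those in the 24 h list only and 50.3% of those in the 72 h list only.

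Most genes near the regions had other ZEB1 peaks too. Within 50 kb, 947 regions had a protein-coding or microRNA gene, 882 genes in all. Of these genes, 820 had 1 such region, 59 had 2 and 3 had 3 (Gm46752, Mir6896 and Pbp2). Another consensus peak was assigned to 640 (72.6%) of the 882 genes. The nearest peak of another list lay at a median of 7951 bp, within 500 bp for 178 regions and within 10000 bp for 693. The narrowest gap among the regions with the highest fold over IgG was 50 bp, near Asrgl1. Assignment names the nearest gene and shows no target.

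Later times were compared with untreated cells by edgeR's quasi-likelihood test with Benjamini-Hochberg adjustment over all tested peaks. The rule had asked for no peak in the list of untreated cells and none at 48 h or 72 h. Low values in untreated cells and at both later times are thus partly built in. At 48 h, 44 of the 922 tested regions rose (4.77%) and 4 fell, beside 6.09% and 5.41% of all tested peaks. At 72 h, 26 rose (2.82%) and 4 fell, beside 6.84% and 5.74%. Of these, 3 of the higher calls at 48 h, and 6 of the higher and 2 of the lower calls at 72 h, were among the 273 regions that passed the filter only with a 24 h library. Without those 273, a count added after the data were seen, 41 of 649 rose at 48 h (6.32%) and 4 fell (0.616%), and at 72 h 20 rose (3.08%) and 2 fell (0.308%). The share of higher calls was thus below the background at 72 h with and without the 273, and at 48 h below it with them and near it without. The share of lower calls was below the background in both counts. Since the rule used all 4 lists and the regions hold few reads, these shares describe the choice of regions. The median fitted log2 fold change was 0.243 at 48 h and 0.193 at 72 h, against 0.00478 and 0.00164 over all tested peaks. Both 48 h libraries were above both untreated libraries in 314 of the 922, beside 28.2% of all tested peaks, and below them in 82, beside 26.7%. At 72 h this was so in 295, beside 28.8%, and in 119, beside 27.9%.

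These calls rested on few libraries. Calls over all tested peaks also fell when an untreated library or a library of the later time was left out. The falls below are thus not particular to these regions, and the number of regions tested changed in those fits. Without the second untreated library 8 regions were called at 48 h and 7 at 72 h, in place of 48 and 30. Without the first untreated library 23 were called at 48 h, and without the first or second 48 h library 22 or 29. Without the first or second 72 h library 15 or 18 were called at 72 h. DESeq2 called 0 of the 922 at both times, beside 76 of all tested peaks at 48 h and 115 at 72 h. Its own filter left 910 and 859 of the 922 without an adjusted p. At an unadjusted p below 0.05 it had 39 higher and 1 lower at 48 h and 32 higher and 4 lower at 72 h. Between 72 h and 48 h, edgeR called 0 of the 922, beside 0.0283% of all tested peaks called higher and 0.00944% called lower. At an unadjusted p below 0.05 edgeR had 18 higher and 32 lower. DESeq2 also called 0, with 1 higher and 4 lower at an unadjusted p below 0.05. Shares of all tested peaks at an unadjusted p are not given here, so nothing is read from the unadjusted counts. The median log2 difference of 72 h from 48 h was -0.053.

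A total of 66 regions were called at 48 h or at 72 h, and 12 rose at both times, while none fell at both. The comparisons share the untreated libraries, and all 12 had both untreated libraries below all 4 of the later ones. Inside Gng7, a G-protein gamma subunit gene (chr10:80961180-80961244), the signal was 2.75 and 4.59 CPM untreated, 27.3 and 32.7 at 24 h, 19.8 and 23.9 at 48 h, then 20.8 and 31.4 at 72 h. In edgeR's quasi-likelihood test with Benjamini-Hochberg adjustment it rose by 2.40 ± 0.600 (SE) on the log2 scale at 48 h (adjusted p = 0.00402) and by 2.62 ± 0.643 at 72 h (adjusted p = 0.00336). Inside Lims1, which encodes a focal-adhesion adaptor (chr10:58360750-58360892), it was 5.5 and 3.06 CPM untreated, 22.2 and 16.4 at 24 h, 25.1 and 13.7 at 48 h, then 23.1 and 12.6 at 72 h. The fitted changes there were 2.29 ± 0.634 at 48 h (edgeR adjusted p = 0.00953) and 2.18 ± 0.722 at 72 h (adjusted p = 0.0327). Without the first or second untreated library the Lims1 values were 2.62 or 1.83 at 48 h and 2.51 or 1.72 at 72 h. Those of Gng7 were 2.17 or 2.88 at 48 h and 2.39 or 3.1 at 72 h. For Lims1 the 3 treated groups overlapped one another, and for Gng7 24 h stood above 48 h while 72 h overlapped both.

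Rgs16 encodes a regulator that ends G-protein signalling, and its region lay 3 bp from the gene's start (chr1:153740284-153740429), in the promoter printed above without an E-box. It had 11.0 and 3.06 CPM untreated, 29.0 and 25.9 at 24 h, 17.2 and 20.5 at 48 h, then 23.1 and 25.1 at 72 h. The change was 1.63 ± 0.569 at 48 h (edgeR adjusted p = 0.0463) and 1.98 ± 0.602 at 72 h (adjusted p = 0.0189). A region assigned to Aars, the alanyl-tRNA synthetase gene (chr8:111027538-111027763), also overlapped the promoter window of Ddx19b, with its centre 120 bp from that start. In this region the signal was 16.5 and 6.12 CPM untreated, 42.6 and 32.7 at 24 h, 27.8 and 29.1 at 48 h, then 23.1 and 40.8 at 72 h. The change was 1.51 ± 0.456 at 48 h (edgeR adjusted p = 0.0189) and 1.62 ± 0.505 at 72 h (adjusted p = 0.0224). For Rgs16 the 24 h libraries remained the highest, and for Aars 24 h and 72 h overlapped. The Plekhh1 promoter region, with 2 E-boxes, had 13.8 and 6.12 CPM untreated, 30.7 and 24.6 at 24 h, 19.8 and 18.8 at 48 h, then 39.3 and 22.0 at 72 h. It rose at 72 h, by 1.83 ± 0.510 (edgeR adjusted p = 0.0104), and had a value of 1.11 ± 0.510 at 48 h (adjusted p = 0.146). Of the 8 regions that rose at 48 h or 72 h and overlapped a promoter window, it was the 1 whose window held CAGGTG.

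**Figure D5:**
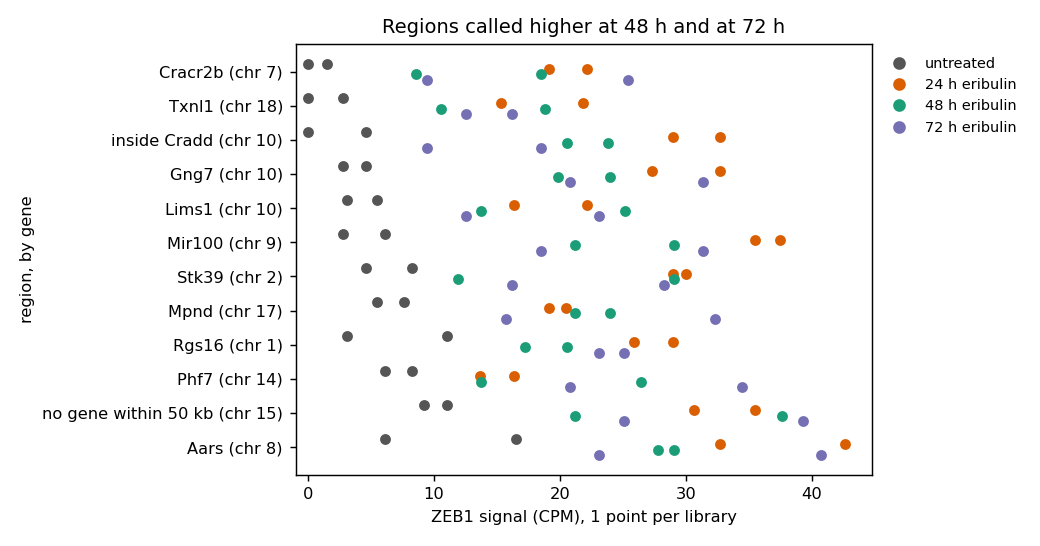
ZEB1 signal (CPM, horizontal axis, 1 point per library) in the 12 regions of the 24 h list only that rose at 48 h and at 72 h against untreated cells. The 2 untreated points lie below the 48 h and 72 h points in each, as in Gng7, with 2.75 and 4.59 CPM untreated and 19.8 to 31.4 later.

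For 3 of the 12 the untreated libraries held 3 reads or fewer, so ratios of summed reads are given with 95% exact binomial intervals, which cover counting error only. Inside Cracr2b, a regulator of calcium-release channels, there was 1 untreated read, against 19 at 48 h and 14 at 72 h, ratios of 14.4 (2.29 to 599) and 19.0 (2.88 to 802). Near Txnl1, a thioredoxin-like protein gene whose region passed the filter only with a 24 h library, there was also 1, against 19 and 11, ratios of 14.4 (2.29 to 599) and 14.9 (2.17 to 641). Inside Cradd, which encodes a death-domain adaptor, there were 3, against 30 and 11, ratios of 7.59 (2.36 to 38.9) and 4.97 (1.31 to 27.7). The 3 were chosen for their calls on the same reads, so the intervals describe only how wide the size of the change is. The other 5 lay near Mir100, Mpnd (inside Sh3gl1), Phf7 (at a promoter window shared with Bap1) and Stk39 and in a stretch of chromosome 15 with no gene within 50 kb. In the Mir100 region the change was 2.27 at 48 h (edgeR adjusted p = 0.00291) and 2.23 at 72 h (adjusted p = 0.0102).

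Other regions passed the test at only 1 of the later times. Inside Mgat5, a gene of N-glycan branching, the signal was 5.5 and 3.06 CPM untreated, 13.6 and 10.9 at 24 h, 11.9 and 22.2 at 48 h, then 9.25 and 28.2 at 72 h. It rose by 2.00 ± 0.693 on the log2 scale at 48 h (edgeR adjusted p = 0.0438) and had a value of 2.08 ± 0.767 at 72 h (adjusted p = 0.0568). Without the first or second untreated library the Mgat5 value at 48 h was 2.33 or 1.54. Near Ets2, an ETS family transcription factor gene, the signal was 0 and 4.59 CPM untreated (3 reads in all), 25.6 and 24.6 at 24 h, 9.26 and 18.8 at 48 h, then 13.9 and 18.8 at 72 h. It passed at 72 h (edgeR adjusted p = 0.0399) and not at 48 h (adjusted p = 0.0517). The Ets2 value at 72 h was 2.35, and 1.74 or 6.12 without the first or second untreated library. For both genes every 48 h and 72 h library was above the untreated ones. Near Tmem200c the signal was 2.75 and 4.59 CPM untreated, 20.5 and 21.8 at 24 h, 19.8 and 10.3 at 48 h, then 6.93 and 6.27 at 72 h. It passed the filter only with a 24 h library and rose at 48 h, by 1.94 ± 0.685 (edgeR adjusted p = 0.0488), and at 72 h the value was 0.73 ± 0.951 (adjusted p = 0.663). Whether the changes at 48 h and 72 h differ was tested by 72 h against 48 h, in which none of the 922 was called.

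The regions that fell against untreated cells were 4 at each time. At 48 h they included regions inside Tanc2, near Tcf3 and in a stretch of chromosome 2 without an assigned gene. Inside Tanc2, a synaptic scaffold gene, the signal was 19.2 and 19.9 CPM untreated, 20.5 and 23.2 at 24 h, 2.65 and 10.3 at 48 h, then 13.9 and 6.27 at 72 h, and it fell by 1.68 on the log2 scale at 48 h (edgeR adjusted p = 0.0380). Its 24 h libraries were nearer to the untreated ones than its 48 h libraries were. Without the first 48 h library the Tanc2 value was -0.922 (adjusted p = 0.406).

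At 72 h the 4 lay inside Tecta, inside Csk, near Tg and inside Pacsin2. Inside Csk, a kinase gene that restrains SRC, the signal was 13.8 and 26.0 CPM untreated, 17.1 and 17.7 at 24 h, 13.2 and 13.7 at 48 h, then 2.31 and 9.41 at 72 h, and it fell by 1.98 on the log2 scale (edgeR adjusted p = 0.0380). Without the second untreated library the Csk value was -1.33, and without the first 72 h library -1.19. Inside Tecta the untreated libraries held 5.5 and 26.0 CPM and the 72 h libraries 4.62 and 3.14, a fitted value of -2.16 (edgeR adjusted p = 0.0486) that was -0.44 without the second untreated library (adjusted p = 0.889). The Tecta call thus rested on that 1 library, and both regions passed the filter only with a 24 h library. Near Tg the untreated libraries held 22.0 and 39.8 CPM and the 72 h libraries 13.9 and 6.27, a fall by 1.63 (edgeR adjusted p = 0.0196), and the value was -1.03 without the second untreated library. Inside Pacsin2, an adaptor of endocytosis, it was 33.0 and 47.4 against 20.8 and 15.7, a fall by 1.17 (edgeR adjusted p = 0.0455), with a value of -0.817 without the same library. None of these 4 passed the test without the second untreated library.

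Genes of 14 lists were neighbours of few of the regions. Of 522 list genes found in the gene table, 52 had a region of the 24 h list only, and the 56 regions were 4.4% of the 1273, against 4.59% for shared 24 h regions. Of epithelial genes, 2 regions in the 24 h list only were found among 24 in the 24 h list, at Cdh1 and Cldn4. The region inside Cdh1, the E-cadherin gene that ZEB1 is known to repress, had 11.0 and 9.17 CPM untreated, 22.2 and 19.1 at 24 h, 7.94 and 6.84 at 48 h, then 13.9 and 9.41 at 72 h. Near Cldn4, a tight-junction claudin, it was 8.25 and 15.3 untreated, 29.0 and 24.6 at 24 h, 10.6 and 23.9 at 48 h, then 20.8 and 18.8 at 72 h. Both had their 24 h libraries above the other 6, and neither passed the test at 48 h or 72 h. Apical-basal polarity genes had none of 12.

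Mesenchymal genes had 6 regions of 63, near Cd44, Col1a1, Col5a1, Itgb1, Loxl2 and Tnc, with a median of 11.6 CPM untreated, 24.4 at 24 h, 13.0 at 48 h and 11.3 at 72 h. Near Itgb1, the integrin beta chain shared by many integrins, the signal was 8.25 and 12.2 CPM untreated, 40.9 and 27.3 at 24 h, 14.6 and 10.3 at 48 h, then 13.9 and 15.7 at 72 h. TGF-beta pathway genes had 6 of 64 (Acvr1b, Id1, Inhba, Skil, Smad3 and Smad6), where only 1 had both 24 h libraries above the other 6. Inside Smad3, a receptor-activated SMAD, it was 19.3 and 27.5 untreated, 23.9 and 28.6 at 24 h, 17.2 and 20.5 at 48 h, then 34.7 and 22.0 at 72 h, with 24 h overlapping the untreated and 72 h libraries. None of the 8 tested regions of these lists was called at 48 h or 72 h in edgeR. Of YAP and AP-1 genes 4 of 75 were found (Amotl1, Jun, Tead1 and Wwtr1), and of Wnt genes 2 of 33. The region inside Lrp5, a Wnt coreceptor, had 16.5 and 13.8 CPM untreated, 52.9 and 40.9 at 24 h, 19.8 and 20.5 at 48 h, then 16.2 and 28.2 at 72 h. Its 24 h libraries were above the other 6.

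Cytoskeleton and adhesion genes had 12 of 134 regions, at 10 genes, and 2 of them were called higher at 72 h. Both passed the filter only with a 24 h library, and both calls were lost in fits without either of the untreated libraries or the first 72 h library (edgeR adjusted p from 0.0623 to 0.356 for Lama5 and 0.116 to 0.225 for Actn1), and that of Actn1 also without the second 72 h library. Inside Lama5, a laminin chain, there were 2 reads untreated and 11 at 72 h, a ratio of 7.45 (95% exact binomial interval 1.63 to 69.2). Inside Actn1, an alpha-actinin that crosslinks actin, there were 3 and 12 in the called region, a ratio of 5.42 (1.46 to 29.9). Another of the 12 regions, also inside Actn1, had 13.8 and 16.8 CPM untreated and 9.25 and 12.55 at 72 h. Its fitted log2 value at 72 h was -0.553 (edgeR adjusted p = 0.585). Genes of growth factor receptors and ligands had 10 of 71 (14.1%, against 8.558% of all regions in the 24 h list and 0 to 16.7% over the 14 lists), of which 6 were tested and none was called at 48 h or 72 h. Inside Fgf2, a fibroblast growth factor, the signal was 5.5 and 6.12 CPM untreated, 22.2 and 21.8 at 24 h, 10.6 and 23.9 at 48 h, then 9.25 and 9.41 at 72 h. Near Egfr, the epidermal growth factor receptor gene, it was 22.0 and 30.6 untreated, 40.9 and 39.6 at 24 h, 26.5 and 27.4 at 48 h, then 32.4 and 12.5 at 72 h. For Egfr the 24 h libraries were above the other 6, and for Fgf2 1 of the 48 h libraries was higher.

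ZEB1 corepressor and chromatin genes had 1 of 33, inside Arid1a, a subunit of the SWI/SNF remodelling complex. It had 5.5 and 12.2 CPM untreated, 27.3 and 35.5 at 24 h, 26.5 and 25.7 at 48 h, then 18.5 and 22.0 at 72 h. It rose at 48 h, by 1.39 on the log2 scale (edgeR adjusted p = 0.0350), and had a value of 1.01 at 72 h (adjusted p = 0.236). Microtubule and mitosis genes had 2 of 40, near the tubulin genes Tuba4a and Tubb6. Near Tuba4a the signal was 2.75 and 22.9 CPM untreated, 29.0 and 35.5 at 24 h, 29.1 and 17.1 at 48 h, then 23.1 and 18.8 at 72 h, with 24 h and 48 h overlapping. Genes of p53 targets and cell death had 5 of 47, among them regions at Bcl2l1 and Ddit4, and interferon genes 1 of 22, at Ifit2. Inside Bcl2l1, which encodes the survival factor BCL-XL, 1 region had 13.8 and 7.64 CPM untreated, 37.5 and 27.3 at 24 h, 15.9 and 25.7 at 48 h, then 13.9 and 15.7 at 72 h. Nuclear receptor and KLF genes had 4 of 59 (Esr1, Klf5, Klf6 and Vdr). Near Klf6, a zinc-finger factor, the signal was 16.5 and 24.5 CPM untreated, 58.0 and 45.0 at 24 h, 25.1 and 32.5 at 48 h, then 18.5 and 37.6 at 72 h. Bcl2l1 and Klf6 had their 24 h libraries above the other 6. Genes of other cell types had 1 of 6, at Csf1r, the macrophage growth factor receptor, with untreated and 24 h libraries overlapping between 26.0 and 36.8 CPM.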

How the data were processed

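ZEB1 CUT&RUN libraries of PB3 cells were made with the EpiCypher CUTANA kit and sequenced paired-end at 76 bp, per the labels. The submitters' processing notes name MACS2 2.1.1, Bowtie2 2.2.6, bedtools 2.30.0, featureCounts, cutadapt 2.4, Picard, deepTools and bcl2fastq 2.20.0.422 with GRCm38 (mm10); settings per step were not given in the sources used here. Raw counts come from the deposited table, by library and consensus peak. The deposited peak lists, 1 per group, hold a score, a fold (ratio) over IgG and the −log10 of p and q for each peak. Peak names refer to replicate 1 and IgG, and the role of replicate 2 was not given in the sources used here. Coverage tracks were not used here.

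The regions, gene lists, comparisons and named-gene rules were chosen with earlier results of these data known. Counts were fitted in edgeR 4.0.16 (R 4.3.3) over all 8 libraries: filterByExpr by group, TMM scaling, robust quasi-likelihood F-tests with 4 residual degrees of freedom, and Benjamini-Hochberg adjustment over all 21192 tested peaks, with calls at 0.05. CPM were computed from the scaled totals, in which 1 read is worth 1.32 to 3.14 CPM, so depth limits single regions, and no added DNA was used for scaling. DESeq2 1.42.0 was an alternative. Genes, lists and promoters come from RefSeq tables of GRCm38.p6, and a region took the nearest protein-coding or microRNA gene within 50 kb, by gene boundary. Sequences are missing for 37 regions, those on chromosome 18 and a contig. Named were the 10 regions with the highest 24 h CPM, highest fold over IgG and largest 24 h change, the 5 with the lowest 24 h ratio, those called later (up to 10 per direction), up to 4 per gene list, and 5 on each side of the caller's threshold. Of these, the text gives values for some, names or counts others, and some are not reported here. Promoters were narrowed, after the data were seen, to windows that a region overlaps. The promoters ranked by signal were those of regions with 1 gene at the window. The lists are Wnt pathway, epithelial, cytoskeleton and adhesion, mesenchymal, interferon and innate sensing, YAP and AP-1, microtubule and mitosis, TGF-beta pathway, growth factor receptors and ligands, apical-basal polarity, nuclear receptors and KLF factors, p53 targets and cell death, other cell types, and ZEB1 corepressors and chromatin. Differences between replicate 1 and replicate 2 correlated between groups from -0.0302 to 0.001, so replicate numbers were not taken as pairs.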

Additional observations from a re-analysis of the deposited data

How the results depend on the processing

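Counts of members and calls moved with the caller's threshold, the tool and single libraries. With a −log10 q of at least 5 asked of all 4 lists the regions in the 24 h list only numbered 805, and 407 when it was asked of the 24 h list alone. With 500 bp, 2000 bp or all gene types the share at a boundary was 13.0, 21.4 and 22.3%. At the same settings it was 26.3, 33.6 and 34.2% for shared 24 h regions and 24.8, 32.7 and 33.0% over all consensus peaks. DESeq2 called 0 regions at 24 h, 48 h and 72 h against untreated cells, beside 90, 76 and 115 of all tested peaks. Its own filter left 911, 910 and 859 of the 922 adjusted p-values missing. With only the 2 groups compared, 7 were called at 72 h, where fewer regions were tested. Leaving out single libraries gave 46 to 103 calls at 24 h, 8 to 29 at 48 h, 7 to 25 at 72 h and 0 for 72 h against 48 h, with medians from 0.707 to 0.953, 0.134 to 0.436, 0.073 to 0.432 and -0.15 to -0.0439. Calls over all tested peaks against untreated cells fell in those fits too. An arm of 1 library in those fits is assumed to vary like the other groups. It gave 374 to 536 regions with the 24 h libraries above the others. That condition is easier to meet with fewer libraries. The median of 72 h against 48 h was -0.0658 with library totals only, -0.0171 with the 2 groups only and -0.081 with pairs summed to 1 library. With the replicate block, 166, 40 and 22 regions were called at 24 h, 48 h and 72 h and 0 for 72 h against 48 h. Of all tested peaks, 2262, 2342 and 2566 were called there, and 8 for 72 h against 48 h. The medians over the regions were 0.756, 0.229, 0.179 and -0.0537. Of 28 calls of named regions, 26 were lost without the second untreated library, where the fitted change was as large or larger in 11 and smaller in 15 (by over 1.5 times in 4, among them Tecta). With the replicate block 10 were lost, with changes of 0.924 to 1.06 times the main value over the 28. Without the 273 regions that needed a 24 h library, added after the data were seen, the calls were 45 and 22. The other scalings and the filter kept each count within 1.5 times. The cause was not tested, and replicates near counting error cannot show a spread between cultures.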
